A study of Mus musculus with 4 samples.

Results

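Binding of the zinc finger protein CTCF was described across the imprinted domain at the distal end of mouse chromosome 7, in cultured cortical neurons. The domain was represented by 7 genes, H19, Igf2, Ascl2, Kcnq1, Kcnq1ot1, Cdkn1c and Phlda2, chosen by name, and all 7 were found among 49595 genes of a RefSeq gene table (GRCm38.p6). Its peaks were those with a summit from 142.4 to 143.6 Mb on chromosome 7 (mm10), which took in 41 of the 33820 peaks deposited. The first and last of these lay 26.1 kb and 15.9 kb inside the bounds, with strengths (sums of −log10 p) of 89.2 and 187.9, and the next peaks outside lay 65.6 kb below (606.5) and 12.4 kb above (45.2). A boundary at 142.933 Mb, midway between Th and Ascl2, separated an H19-Igf2 section with 23 peaks from a Kcnq1 section with 18. The samples were 2 CTCF immunoprecipitations and 2 input libraries from wild-type Swiss-Webster neurons, taken from cortex at embryonic day 16 and kept for 13 days in culture, with no treatment of these samples. Each peak of the 1 joint list was found in both immunoprecipitations, with an irreproducible discovery rate (IDR) no higher than 0.05. There was 1 condition and no list for the inputs, so all comparisons are descriptions within this list, with no test. Cell type markers cannot be read from a peak list, and library depths are unknown.

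An imprinted gene is expressed mainly from the copy inherited from 1 parent. At H19 and Igf2, a control region between the genes, a short way upstream of H19, is methylated on the paternal copy. CTCF is known to bind the unmethylated maternal copy there and to block the contact of Igf2 with enhancers beyond H19, so that the maternal copy makes the non-coding RNA H19 and the paternal copy makes the fetal growth factor Igf2. At Kcnq1, the control region is the promoter of Kcnq1ot1, a long non-coding RNA antisense to Kcnq1; it is made from the paternal copy, on which neighbouring genes are silenced. The neighbours include Cdkn1c, an inhibitor of cyclin-dependent kinases, Phlda2, which restrains placental growth, and Ascl2, a transcription factor of the placenta. Peaks counted on the reference genome do not tell the parental copies apart.

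The strength given for each peak is the value the authors deposited for the pair of replicates: −log10 p in the first replicate column plus that in the second. It depends on depth, so strengths are set only beside others of the same list, whose median strength was 165.5.

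RefSeq start-site windows of GRCm38.p6, reaching from 250 bases before a listed start to 50 after it, were at hand for 4 of the 7 genes (Igf2, Ascl2, Kcnq1ot1 and Phlda2) and for 21 of the 38 genes wholly inside the domain. Windows that the results turn on are printed 5′ to 3′ on the strand of the gene. Capitals mark matches on either strand to stretches of the CTCF core motif, GGNGGCAG, CAGGGGGC or CCNCNAGG, where N is any base; these can overlap.

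A summit falls in the windows of 2 genes of the domain, both non-coding, and these are shown for that reason. Gm33663 lies above Cdkn1c (chr7:143466449-143466748, minus strand). A further listed start of Gm33663, shifted by 1 base, has nearly the same window and is not printed.
Gm33663: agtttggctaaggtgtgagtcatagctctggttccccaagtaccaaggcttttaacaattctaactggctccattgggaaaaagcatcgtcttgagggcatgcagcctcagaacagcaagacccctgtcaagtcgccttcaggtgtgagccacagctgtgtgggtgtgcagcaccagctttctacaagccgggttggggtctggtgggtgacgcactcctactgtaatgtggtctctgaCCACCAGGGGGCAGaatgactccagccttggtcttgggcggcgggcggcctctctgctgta

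Gm33148 lies between H19 and Igf2 (chr7:142610569-142610868, plus strand).
Gm33148: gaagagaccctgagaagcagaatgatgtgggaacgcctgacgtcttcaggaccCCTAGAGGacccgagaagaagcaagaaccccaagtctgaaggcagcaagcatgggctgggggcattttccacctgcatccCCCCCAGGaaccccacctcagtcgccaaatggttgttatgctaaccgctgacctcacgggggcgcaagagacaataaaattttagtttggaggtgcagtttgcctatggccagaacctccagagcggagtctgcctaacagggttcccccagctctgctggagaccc

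The Ascl2 window is shown because it lies wholly under the peak of that gene (chr7:142969215-142969514, minus strand).
Ascl2: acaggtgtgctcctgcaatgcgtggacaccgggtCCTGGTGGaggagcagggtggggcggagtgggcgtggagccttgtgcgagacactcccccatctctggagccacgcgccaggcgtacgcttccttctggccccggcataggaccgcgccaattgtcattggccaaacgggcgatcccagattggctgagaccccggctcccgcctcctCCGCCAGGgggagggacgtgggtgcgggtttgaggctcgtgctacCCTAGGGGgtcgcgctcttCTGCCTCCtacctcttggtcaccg

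The Igf2 window is the one of 4 listed starts that a peak overlaps, and the peak is weak (chr7:142658755-142659054, minus strand).
Igf2: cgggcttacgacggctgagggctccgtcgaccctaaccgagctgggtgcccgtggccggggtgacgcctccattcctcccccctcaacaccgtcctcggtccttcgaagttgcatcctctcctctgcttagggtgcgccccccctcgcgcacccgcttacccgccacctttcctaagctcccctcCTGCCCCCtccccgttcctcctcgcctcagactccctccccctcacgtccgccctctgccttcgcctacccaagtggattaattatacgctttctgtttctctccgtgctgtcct

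The Kcnq1ot1 window, at the start of the antisense RNA, is shown because no peak lies near it (chr7:143296498-143296797, minus strand).
Kcnq1ot1: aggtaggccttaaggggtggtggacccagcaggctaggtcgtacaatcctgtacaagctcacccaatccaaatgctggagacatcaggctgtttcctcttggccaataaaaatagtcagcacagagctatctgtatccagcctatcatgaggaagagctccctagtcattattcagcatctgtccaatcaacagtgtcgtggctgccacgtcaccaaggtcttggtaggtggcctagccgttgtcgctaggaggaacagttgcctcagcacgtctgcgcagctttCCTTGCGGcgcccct

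The Mrpl23 window is shown because the strongest peak of the domain covers it (chr7:142532782-142533081, plus strand).
Mrpl23: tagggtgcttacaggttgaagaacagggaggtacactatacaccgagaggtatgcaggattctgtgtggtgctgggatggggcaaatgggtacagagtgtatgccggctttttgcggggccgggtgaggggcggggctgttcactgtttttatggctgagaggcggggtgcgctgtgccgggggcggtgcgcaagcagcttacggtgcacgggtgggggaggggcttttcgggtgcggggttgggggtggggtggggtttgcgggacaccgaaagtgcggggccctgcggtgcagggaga

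In the Gm33663 window all 3 stretches overlapped in 1 run, CCACCAGGGGGCAG, at bases 240 to 253 of the window and 20 bp from the summit. Windows that held all 3 stretches numbered 105 of 32851 over all genes (0.320%), and made up 2.51% of those with a summit. This counts windows with the 3 stretches, of which CCNCNAGG was chosen after seeing the data, and is not a count of the run itself. The Gm33148 window held 2 matches to CCNCNAGG, 81 bp and 1 bp from the summit, and no match to the other 2 stretches. The Ascl2 window held 1 match to GGNGGCAG and 3 to CCNCNAGG, all of them 936 to 1178 bp from the summit. The Igf2 window held 1 match to GGNGGCAG, 551 bp from the summit. The Phlda2 window, not printed, held 1 match to GGNGGCAG, 3899 bp from the nearest summit. The Kcnq1ot1 window held 1 match to CCNCNAGG, 142475 bp from the nearest summit. None of the 3 stretches was in the Mrpl23 window, which says only that these letters are not in it. Over all windows, GGNGGCAG was in 12.6%, CAGGGGGC in 2.87% and CCNCNAGG in 21.8%. Among the 1996 windows with a summit the shares were 21.1%, 12.1% and 41.1%, in the same order of motifs. The G and C content was 67.0% in the Ascl2 window, 65.7% in the Phlda2 window, 64.7% in the Igf2 window and 63.3% in the Mrpl23 window. It was 56.3% in the Gm33148 window, 55.7% in the Gm33663 window and 53.3% in the Kcnq1ot1 window, against a median of 52.7% over all windows.

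Peaks were dense in the domain. It held 34.2 peaks per Mb, against 15.9 in the rest of chromosome 7 and 12.7 in the rest of all chromosomes. Of 2195 other windows of 1.2 Mb, 153 (6.97%) held at least 41 peaks, and the median window held 12. The neighbouring stretches of the same length held 47 peaks below the domain and 40 above it. Within the domain the H19-Igf2 section had 43.1 peaks per Mb and the Kcnq1 section 27.0. With the boundary set instead between Ins2 and Th, at 142.786 Mb, the sections held 19 and 22 peaks. These are raw counts. The H19-Igf2 section was the shorter with either boundary (0.533 against 0.667 Mb with the main one). It had more peaks per Mb with either boundary.

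**Figure D1:**
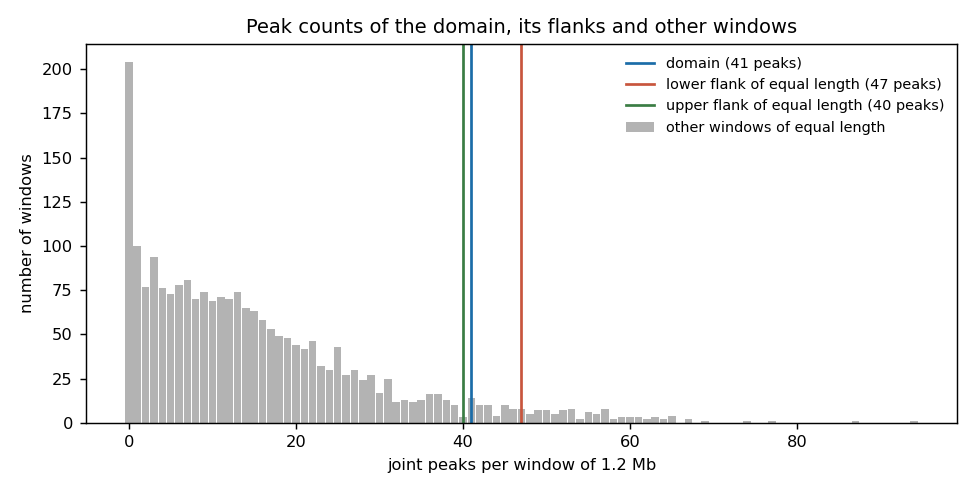
Number of joint CTCF peaks (horizontal axis) in windows of 1.2 Mb along all chromosomes; bar height is the number of windows. Vertical lines mark the domain at 41 peaks, the stretch below it at 47 and the stretch above it at 40, all far right of the median of 12.

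The median domain peak was stronger and wider than the median peak of the list. The median strength was 208.7, from 33.5 to 932.8, with 216.6 in the H19-Igf2 section and 187.4 in the Kcnq1 section. Above the median of the list lay 28 of 41 domain peaks (68.3%), 17 of 23 in the H19-Igf2 section and 11 of 18 in the Kcnq1 section. Of the 41, 16 lay above the upper quartile of the list (312.4) and 6 below its lower quartile (80.8). The median width was 1395 bp in the domain and 1123 bp in the list. Peaks covered 5.29% of the domain, 2.01% of the rest of chromosome 7 and 1.56% of the rest of all chromosomes. The neighbouring stretches of equal length were covered to 5.31% below and 4.18% above, and their median strengths were 166.0 below and 241.4 above. The domain thus lay within the range of its flanks in median strength and close to them in cover. It was above both in the share of peaks over the median of the list (51.1% below and 55.0% above) and in median width (1212 bp below and 1159.5 bp above).

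**Figure D2:**
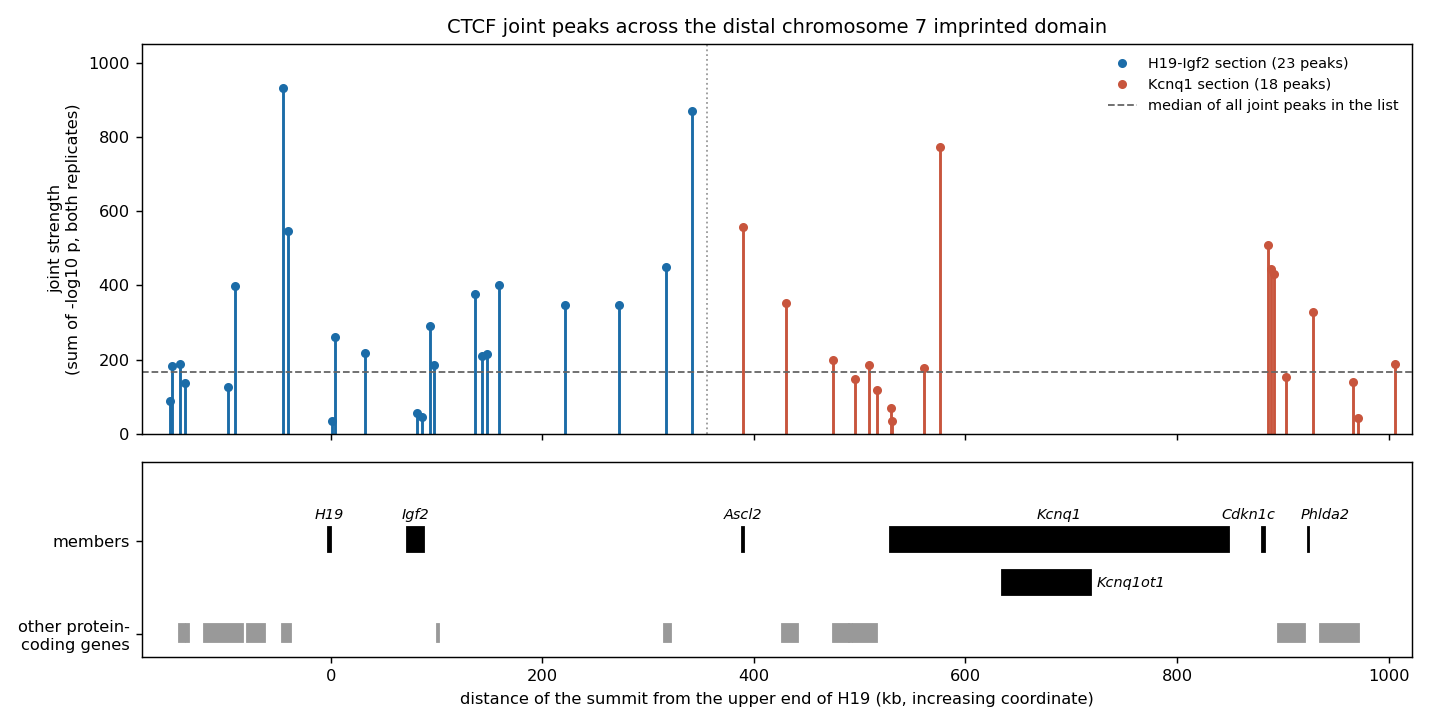
Upper panel: joint strength (sum of −log10 p of both replicate columns) of each of the 41 domain peaks against distance in kb from the upper end of H19, coloured by section, with the median of the list dashed at 165.5 and the boundary of the sections dotted. Lower panel: the 7 member genes in black and the other protein-coding genes in grey; no peak stands over Kcnq1ot1, and Cdkn1c lies just below a group of 3 strong peaks.

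H19, a gene of 2617 bp (chromosome 7, 142575530 to 142578146), had no peak inside. Above its upper end, on the side of Igf2, stood a pair of peaks. The larger ran from 142580014 to 142582437, that is from 1868 to 4291 bp above H19, and its values were 68.0 in the first column and 193.0 in the second, a strength of 261.0, higher than 68.1% of the list. Its matched summits in the replicates were 1271 bp apart. The smaller, from 142578899 to 142579505, had 12.2 and 22.7, a strength of 34.9, close to the 32.5 of the weakest peak in the list. Its summit was 1137 bp above H19, just outside the 1 kb used for a peak at a gene end. Below H19 the next summit was 37.4 kb away, inside Mrpl23, with a strength of 547.1.

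Igf2 (142650768 to 142666816) held a pair of weak peaks, both higher in the first column than in the second. The peak from 142658827 to 142660246 had 35.1 and 20.8, a strength of 55.9, with its summit 616 bp upstream of the listed start whose window is printed above; it covered 228 of the 300 bases of that window. The peak from 142663668 to 142664624 had 25.5 and 18.7, a strength of 44.1. Igf2os, a non-coding gene that overlaps Igf2, has an end 260 bp from the summit of the first of these, so the peak counts for both genes. Stronger peaks stood above Igf2, toward the insulin gene Ins2. One at 5501 bp from the upper end had 54.2 and 236.3, a strength of 290.4, and one at 9030 bp had 26.0 and 158.2, a strength of 184.2. The 4 peaks within 10 kb of Igf2 thus formed a weak pair inside the gene and a pair above the median of the list outside it.

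Elsewhere in the H19-Igf2 section, the strongest peak of the domain lay at the lower end of Mrpl23, which encodes a protein of the mitochondrial ribosome. It had 363.4 and 569.4, a strength of 932.8, and rank 892 in the list, with its summit 65 bp from a listed start. Another peak of 869.4 lay in intergenic sequence 19460 bp above Th, the gene of tyrosine hydroxylase, near the boundary of the sections. Th itself held a peak of 449.2. Between Ins2 and Th, the non-coding gene Gm39116 held 4 peaks with strengths of 375.4, 208.7, 216.4 and 400.6.

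Ascl2 (142966822 to 142969264) was the gene with the strongest end peak among the 7. The peak ran from 142967279 to 142969746 and covered the start of the gene, with 240.7 in the first column and 317.3 in the second, a strength of 558.0 and rank 2666. Its summit was inside the gene, 969 bp from the listed start, so it only just met the limit of 1 kb. The next summits were far off on either side, 47.4 kb below (869.4) and 38.9 kb above (352.2).

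Kcnq1 (143106877 to 143427050), the gene of a voltage-gated potassium channel best known from the heart and inner ear, held 4 peaks in 320.2 kb, all with summits in the 47153 bp nearest its lower end. The peak 413 bp from that end had 38.1 and 30.5, a strength of 68.6. The next, 1438 bp in, had 13.7 and 19.8, a strength of 33.5, the weakest of the domain. Deeper, 32158 bp in, the values were 38.0 and 140.7, a strength of 178.7. The peak from 143150485 to 143154577 had 336.9 and 434.5, a strength of 771.4, higher than 96.0% of the list. It was the widest of the domain at 4093 bp, and its matched replicate summits were 2550 bp apart. Kcnq1 had 1.25 peaks inside per 100 kb, against 0.836 over the 557 protein-coding genes longer than 300 kb, whose median was 4 peaks.

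Kcnq1ot1 (143213111 to 143296547) had no peak inside and none within 10 kb, alone among the 7 genes. Its listed start was 142517 bp from the nearest summit, the strong one inside Kcnq1. Of 4340 genes of 50 to 150 kb, 31.9% also had no summit inside. Kcnq1ot1 and Cdkn1c lay within the longest gap of the domain, 310.0 kb between neighbouring summits at 143154030 and 143464076. Gaps at least as long made up 4.29% of those over all chromosomes (1451 of 33794). The next longest gap in the domain was 62.0 kb, and the median was 14.1 kb, against 26.8 kb over all chromosomes. By sections, the median gap was 9.76 kb in the H19-Igf2 section and 15.0 kb in the Kcnq1 section.

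**Figure D3:**
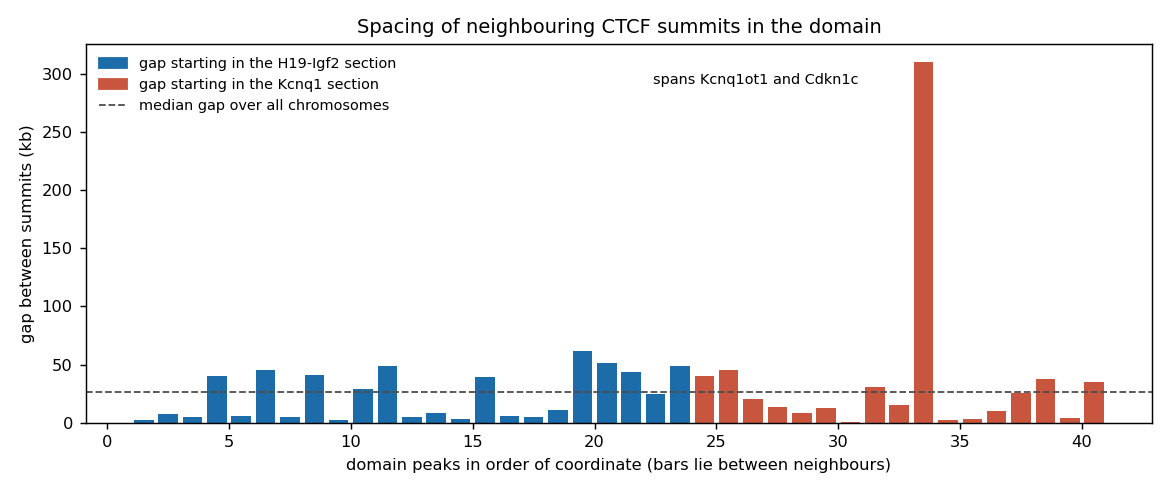
Distance in kb between neighbouring summits of the domain, in order of coordinate, coloured by the section in which the gap starts; the dashed line is the median of 26.8 kb over all chromosomes. One bar, the gap of 310.0 kb that holds Kcnq1ot1 and Cdkn1c, stands far above the rest; the next is 62.0 kb.

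Cdkn1c (143458339 to 143461059) had no peak inside, and below it the nearest summit was 304.3 kb away. Above it stood 3 strong peaks. At 3017 bp from its upper end the values were 157.3 and 350.4, a strength of 507.7. At 5470 bp they were 189.9 and 253.7, a strength of 443.6; this is the peak over the Gm33663 window with the joined motif run. At 9112 bp they were 99.7 and 331.3, a strength of 431.0. Each was weaker than the strongest peak of Kcnq1 and that of Ascl2. Summed over the peaks inside or within 10 kb, the strength around Cdkn1c was 1382.3 from 3 peaks. The neighbour Gm33663 had the same sum from the same peaks, 2 of them within 1 kb of its own ends. Slc22a18, also not among the 7, had a higher sum of 1863.6. The sum was 1052.2 from 4 peaks for Kcnq1, 574.7 from 4 for Igf2, 558.0 from 1 for Ascl2, 326.9 from 1 for Phlda2 and 295.9 from 2 for H19. The order turned with the distance used: within 5 kb the sum was 507.7 from 1 peak for Cdkn1c, below Kcnq1 and Ascl2, whose sums stayed as they were, and the sum for Igf2 kept only the 2 weak peaks inside the gene.

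Phlda2 (143501545 to 143503145) had 1 peak within 10 kb, from 143505240 to 143507486, with its summit 3385 bp above the upper end. Its values were 45.7 and 281.3, a strength of 326.9, and its replicate summits were 1428 bp apart. The nearest summit below was 20.9 kb away inside Slc22a18, an organic cation transporter gene, with a strength of 154.4.

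Counted over the 7 genes, 2 (28.6%) had a summit within 1 kb of an end, Ascl2 and Kcnq1. The count was 1 within 500 bp (Kcnq1) and 6 within 5 kb (all but Kcnq1ot1). The share was 17.9% of all 49595 genes, 29.2% of protein-coding genes and 14.8% of long non-coding genes. By kind, the 2 were among the 5 protein-coding members (40.0%), and the 2 long non-coding members had none. A summit lay inside 3 of the 7 (Ascl2, Igf2 and Kcnq1), against 25.4% of all genes, and inside or within 10 kb of 6 of the 7, against 48.0%. Among the other 31 genes wholly inside the domain, 17 had a summit inside and 25 had one inside or within 10 kb. With so few genes and a domain this rich in peaks, the counts for the 7 genes describe those genes and no more. By listed starts, 21.9% of 27025 genes had a summit within 1 kb, and of the 4 members with a window, Ascl2 and Igf2 did.

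The other 31 genes wholly inside the domain included 13 protein-coding ones, of which 5 (38.5%) had a peak at an end. These were Mrpl23 (932.8), Cd81, which encodes a tetraspanin (200.1), Syt8 of the synaptotagmin family (188.2), the taste channel gene Trpm5 (118.4) and the histone chaperone gene Nap1l4 (42.4). Tnni2, Lsp1, Tnnt3, Ins2, Th, Tspan32, Tssc4 and Slc22a18 had none. Of the 18 other genes, 3 had one: Gm33663 (507.7), R74862, which shares the peak of Cd81, and Igf2os (55.9). Of the 41 peaks, 15 lay inside or within 10 kb of a member, with a median strength of 261.0, and 26 lay farther off, with a median of 204.4. The 6 peaks above 500 were divided equally, 3 in each set.

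By position, 8 of the 41 summits (19.5%) lay within 1 kb of an end of a protein-coding gene, against 18.0% of the list. Elsewhere inside such a gene lay 15 (36.6%), against 43.6%. At or inside other genes lay 8 (19.5%), against 8.51%, and 10 (24.4%) were intergenic, against 29.9%. Of the 8 at or inside other genes, 4 lay inside Gm39116 and 2 at the ends of Gm33663. In the H19-Igf2 section 8 of 23 summits were intergenic and 6 at other genes, while in the Kcnq1 section 5 of 18 lay at the ends of protein-coding genes and 9 elsewhere inside them.

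The second column was higher in 34 of the 41 domain peaks (82.9%), 20 of 23 in the H19-Igf2 section and 14 of 18 in the Kcnq1 section, against 90.7% of the list. The median log2 ratio of second over first was 1.48 in the domain, 1.65 in the H19-Igf2 section and 1.23 in the Kcnq1 section, against 1.91 in the list. In the stretches of equal length the second column was higher in 95.7% of peaks below and 92.5% above, and the median log2 ratio was 1.48 below and 1.49 above, so the median ratio of the domain was close to that of its flanks. The 7 peaks that were higher in the first column were both peaks inside Igf2, those at the ends of Kcnq1, Cd81 and Nap1l4, the one inside Slc22a18 and one below Syt8. Their strengths were 200.1 or less. Matched summits were a median of 29 bp apart in the domain and in the list, and over 500 bp apart in 5 domain peaks (12.2%), against 12.8% of peaks in the stretch below, 10.0% in the stretch above and 6.83% of the list. Among these 5 were the larger peak above H19, the strong peak inside Kcnq1 and the peak above Phlda2.

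**Figure D4:**
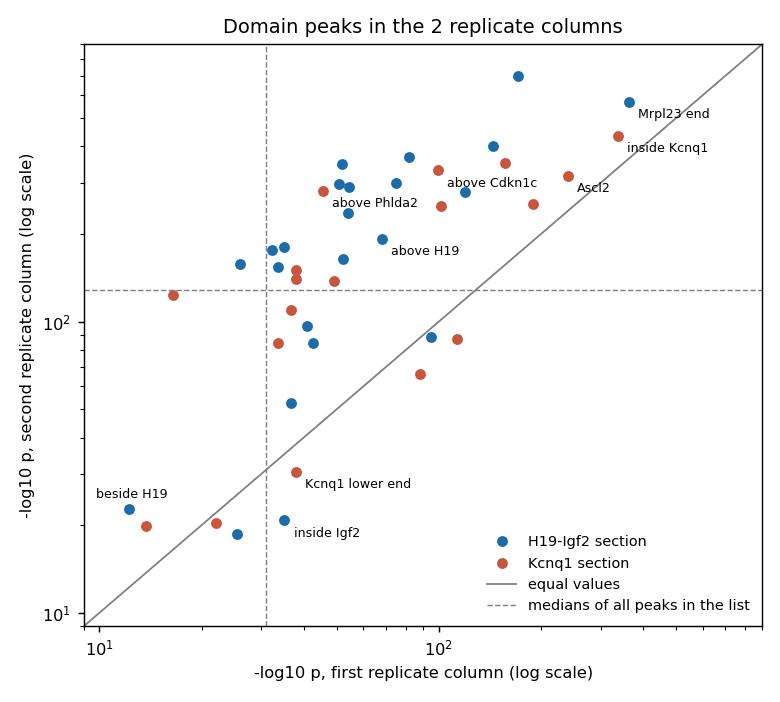
Value of −log10 p in the second replicate column against the first, on log scales, for the 41 domain peaks coloured by section; the solid line marks equal values and the dashed lines the medians of the list, 30.9 and 128.9. Of the 41 points, 34 lie above the line of equal values, and the peaks inside Igf2 and at the lower end of Kcnq1 lie below it.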

How the data were processed

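Per the labels' protocols, about 15M neurons per replicate were fixed for 10 minutes in formaldehyde at 1%, and sonicated DNA measured 200 to 500 bp. MACS2, BWA, SAMtools, Trimmomatic and FastQC are named in the submitters' processing notes, with mm10 and GRCm38.p6 as builds. Neither their versions and roles nor the calling threshold and the part played by the inputs could be taken from these sources. The deposited table has the 20 columns of IDR output for paired replicates. The −log10 p value in either replicate, their sum (checked in all 33820 peaks) and the −log10 of the global IDR (lowest 1.30, capped at 5) are deposited values made by the authors. Which labelled replicate each column holds is unknown. Library depths are unknown, and their part in the difference between the columns was not tested.

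Summits were counted from 1. Genes came from a RefSeq table of GRCm38.p6 with ends but no exons; 49595 placed on chromosomes were used. Summits were placed within 1 kb of a gene end, inside genes, or within 10 kb. The members, lists and boundary were chosen with earlier results of these data known. All members and every domain peak's nearest gene could be named, and among other genes the protein-coding ones inside the domain. The motif CCNCNAGG, the use of each replicate's own summit, and summed strengths within 5 and 20 kb were chosen after seeing the data. Alternatives were an IDR of 0.01, peaks above the median strength or the median of either column, any base of the peak, end windows of 500 bp and 5 kb, flanks of 5 and 20 kb, and a boundary between Ins2 and Th. The placing was tested on simulated data, where 200 of 200 genes with a planted peak were found. Python 3.11.15, numpy 2.4.6, pandas 2.3.3 and matplotlib 3.10.9 were used.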

Additional observations from a re-analysis of the deposited data

How the results depend on the processing

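Of 55 recomputed counts and medians, 46 stayed within 1.5 times the reported count or within the spread of strengths, and 9 did not. Some of the 46 could hardly move. Any base of the peak, or the summit of either replicate, gave 41 domain peaks with the same median strength of 208.7. A fall from 3 genes to 2 with a peak inside also counted as staying. With the peaks above the median strength, the Kcnq1 section held 11 peaks, the median strength of the domain was 347.1 and 1 of the 7 genes, Ascl2, had a peak at an end. With the peaks above the median of the second column, the domain held 26 peaks and the Kcnq1 section 10, the median strength was 350.2 and again 1 gene, Ascl2, had a peak at an end. Both settings remove weak peaks by construction. With an end window of 500 bp, 1 gene had a peak at an end, Kcnq1, and with 5 kb 6 genes did, all but Kcnq1ot1. The count of 6 genes with a peak within 10 kb was the same under every alternative run. At an IDR of 0.01 the domain held 36 peaks, 20 in the H19-Igf2 section and 16 in the Kcnq1 section, and Igf2 no longer had a peak inside. With the boundary between Ins2 and Th, at 142.786 Mb, the sections held 19 and 22 peaks, so the order of the raw counts turned round. The H19-Igf2 section then ran from 142.4 to 142.786 Mb and the Kcnq1 section from there to 143.6 Mb. The H19-Igf2 section was thus the shorter and still had more peaks per Mb, as with the main boundary. With any base of the peak, H19 also had a peak at an end. No paired analysis of conditions was possible, because there was 1 condition and no list for the inputs. The replicate columns were compared peak by peak only as a description, and no test was made. The list holds only peaks found in both replicates, so weak peaks missed in 1 library cannot be counted. Depth is unknown as well.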
